A study of Mus musculus with 22 samples.

Results

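The genes described here were 36 genes of the NRF2, glutathione and antioxidant systems, followed by name in both deposited tables of a mouse neural stem cell study, which list 24411 genes each. They were Nfe2l2 and Keap1, Nqo1, Hmox1, Srxn1, Osgin1, Me1 and Blvrb, Slc7a11, Gclc, Gclm, Gss and Gsr, Txn1 and Txnrd1, Ftl1 and Fth1, Gstm1, Gstm5, Gsta4, Gstp1, Gsto1, Gstt1, Mgst1 and Mgst3, Gpx1 and Gpx4, Prdx1 to Prdx6 and Sod1, Sod2 and Cat. All 36 were in both tables and all 36 passed the filter on low counts in both.

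The study asked how loss of O-GlcNAcylation, the attachment of N-acetylglucosamine to nuclear and cytosolic proteins by O-GlcNAc transferase (OGT), bears on neural stem cells of the mature hippocampus. RNA was sequenced from 22 libraries of primary adult mouse hippocampal neural stem cells, kept in Neurobasal A with B27, EGF and bFGF on a laminin coat, in 4 groups. The shOgt group (5 libraries) received lentivirus with a short hairpin RNA against Ogt and the shLuc group (6 libraries) lentivirus with the control hairpin, both at 10 viral particles per cell for 3 days. The OSMI-1 group (5 libraries) received 12.5 µM OSMI-1, a small-molecule OGT inhibitor, for 24 h, and the vehicle group (6 libraries) an equal volume of DMSO. The labels give the animals as adult, with no sex or strain, and nothing in them ties the replicates to separate cultures or animals, so p-values measure the spread between these libraries, which may be technical. In bulk RNA, fewer cells of a type and less RNA per cell cannot be told apart.

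NRF2, encoded by Nfe2l2, is a transcription factor that KEAP1 binds in the cytosol and brings to a ubiquitin ligase, which marks it for the proteasome. Oxidants and electrophiles modify cysteines of KEAP1, NRF2 then accumulates, pairs with small MAF proteins and binds the antioxidant response element, whose core reads TGACNNNGC. Its targets import cystine, build and recycle glutathione, reduce thioredoxin, detoxify quinones and store iron. In the brain the pathway is best known from astrocytes, and neural stem cells are known to depend on control of reactive oxygen for self-renewal.

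The core element was looked for on both strands of the promoter windows of the members (250 bases before to 50 after a gene's start, RefSeq, GRCm38.p6), since it is the site through which NRF2 acts. Windows were at hand for 31 members, all but Hmox1, Gclc, Gsr, Gsta4 and Prdx6, which were not searched. Sites outside the windows were not searched for any gene. Of the 31 members, 9 (29.0%) held the element, against 14.0% of 27025 genes with a window. Those 9 were Nfe2l2, Srxn1, Me1, Gclm, Txnrd1, Gstm5, Mgst1, Prdx1 and Sod1. Shown are the 5 that were called in at least 1 comparison, together with Prdx1 for its likeness to Me1, each written 5′ to 3′ on the strand named, with the element in capitals and its flanks in lower case:
Nfe2l2, chr2:75704885-75704913, minus strand: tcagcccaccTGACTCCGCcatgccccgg
Me1, chr9:86695902-86695930, minus strand: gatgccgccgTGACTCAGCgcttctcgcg
Txnrd1, chr10:82859104-82859132, minus strand: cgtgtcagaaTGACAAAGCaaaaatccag
Gstm5, chr3:107895802-107895830, plus strand: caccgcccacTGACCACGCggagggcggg
Mgst1, chr6:138140461-138140489, minus strand: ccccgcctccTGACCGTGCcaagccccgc
Prdx1, chr4:116685456-116685484, minus strand: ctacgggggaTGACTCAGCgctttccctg
In Me1 and Prdx1 the element overlaps the AP-1 motif TGACTCA. A match is a description of letters in the window, and whether NRF2 occupied any of these sites was not measured. The sites shown were chosen mainly by the call of their gene, so they do not link the element to a call. Of all 36 members 14 were called in neither arm, as were 6068 of the 11269 genes tested in both arms.

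Values are deposited normalized read counts, that is, gene counts divided by a size factor of the library, and the arms were scaled separately, so levels are compared only within an arm. Fold changes are on the log2(normalized count + 1) scale ± SE, a gene was called at a limma adjusted p under 0.05 over all tested genes, errors of means are SD, and n was 5 for shOgt and OSMI-1 and 6 for shLuc and vehicle. Reads assigned to genes, recovered from the values, ran from 7224180 to 11203201 in shOgt, 9852956 to 13222262 in shLuc, 4593620 to 12778845 in OSMI-1 and 4522610 to 5927905 in vehicle libraries. On principal components shOgt replicate 3 and shLuc replicates 1 and 3 stood apart in the knockdown arm, and OSMI-1 replicate 5 and vehicle replicate 1 in the inhibitor arm. Calls that change without them are named with the results. Ogt (GRCm38 chromosome X, 101640060 to 101684351) stood at 349 to 524 in shOgt and 737 to 1004 in shLuc libraries. With OSMI-1, which acts on the protein, it stood at 599.9 ± 42.5 in OSMI-1 against 455 ± 37.6 in vehicle (log2 0.40, limma adjusted p = 0.001).

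Marker genes of the labelled and of other cell types moved in both arms, and their part in the results below was not tested. Of 10 neural stem cell markers 9 were tested after knockdown, where Vim rose (log2 0.49) and Slc1a3 (-0.53), Pax6 (-0.38) and Sox9 (-0.64) fell. Of 8 tested after OSMI-1, Sox9 rose (0.24) and Slc1a3 (-0.62), Pax6 (-0.98), Vim (-0.50) and Fabp7 (-0.53) fell. Nes, the stem cell filament, was not called, at 5228 ± 84.2 in shOgt against 5591 ± 277 in shLuc, and at 3027 ± 184 in OSMI-1 against 2892 ± 153 in vehicle. Sox2 had low counts in both arms and was not called in either. It stood at 58.7 ± 11.9 in shOgt against 65.6 ± 21.3 in shLuc, and at 59.0 ± 12.3 in OSMI-1 against 61.8 ± 12.9 in vehicle. The 6 astrocyte markers summed to 4370 to 5350 in shOgt and 4240 to 4590 in shLuc. Slc1a2 fell (-0.46) and the other 4 tested were not called. They summed to 2610 to 2880 in OSMI-1 and 2120 to 2420 in vehicle. There S100b (1.28) and Aldh1l1 (0.31) rose and the other 2 tested were not called. Gfap stood at 3.2 ± 2.82 in OSMI-1 against 8.97 ± 4.65 in vehicle, and Aqp4 at 0.268 ± 0.405 in OSMI-1 against 1.54 ± 1.73 in vehicle.

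The 8 neuron markers summed to 3020 to 3450 in shOgt and 3270 to 4040 in shLuc, mostly Map2. There Syt1 (261 ± 58.4 in shOgt against 46.4 ± 19.4 in shLuc) and Tubb3 (397 ± 25.8 in shOgt against 235 ± 38.0 in shLuc) rose and Map2 fell. They summed to 2130 to 2990 in OSMI-1 and 1780 to 2300 in vehicle. Map2 rose there and 3 of the 4 tested fell. Oligodendrocyte lineage markers summed to 518 to 758 in shOgt and 850 to 1230 in shLuc, with Olig2 (-0.81) and Cspg4 (-0.96), the 2 tested, lower. Those markers summed to 621 to 744 in OSMI-1 and 541 to 755 in vehicle. Mbp, at 8.4 ± 9.48 in OSMI-1 against 19.5 ± 6.73 in vehicle, fell and 3 were not called. The 8 microglia markers together came to 7.89 to 19.8 in shOgt, 5.6 to 17.8 in shLuc, 6.02 to 20.6 in OSMI-1 and 6.67 to 21.5 in vehicle libraries. Vessel and fibroblast markers came to 22.4 to 70 in shOgt, 10.4 to 29.5 in shLuc, 5.73 to 33.5 in OSMI-1 and 5.74 to 19.4 in vehicle. Only 1 vessel or fibroblast marker was tested after knockdown, and 0 after OSMI-1. That 1 was called higher by limma (log2 2.17), but not by edgeR or DESeq2.

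Per kilobase of annotated exon, Ftl1 had the highest level of the 36 in every group, at 43783 normalized counts per kilobase in shOgt and 38304 in shLuc. In the inhibitor arm the figures for Ftl1 were 17979 in OSMI-1 and 12456 in vehicle. Osgin1, Gclm and Slc7a11 filled the lowest 3 places in every group. The length used is the union of all annotated exons, at 13922 bases for Slc7a11 the longest of the 36. By mean normalized count, without division by length, Slc7a11 lay above Gclc in every group. The 36 genes together took 1.84 ± 0.0686% of reads in shOgt and 1.67 ± 0.0992% in shLuc, and 1.64 ± 0.0687% in OSMI-1 and 1.43 ± 0.067% in vehicle (SD). Within it Ftl1 and Fth1 together took 0.838 ± 0.0386% of reads in shOgt and 0.745 ± 0.0518% in shLuc. The ferritin share was 0.806 ± 0.0331% in OSMI-1 and 0.652 ± 0.0384% in vehicle. Spread within a group was wide for some of the lowest genes, with a coefficient of variation of 84.1% for Osgin1 in shLuc and 41.9% for Gclm in vehicle. For Slc7a11 it was 13.1% in shLuc and 14.6% in vehicle.

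**Figure D1:**
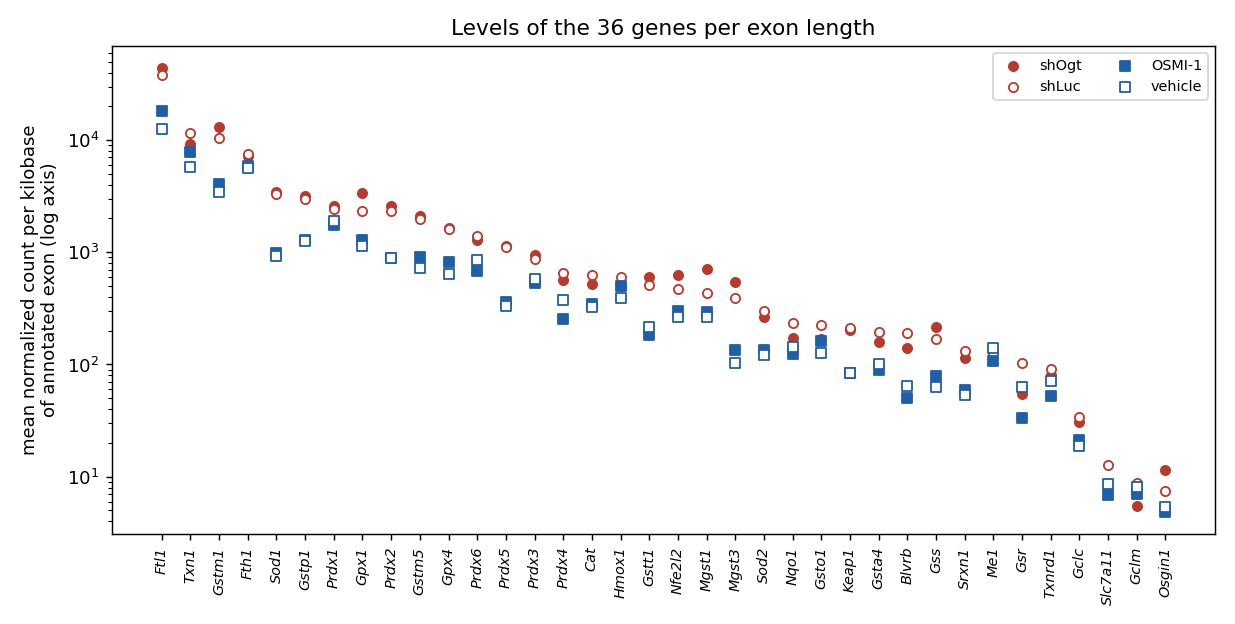
Mean normalized count per kilobase of annotated exon (log axis) for each of the 36 genes, ordered by the shLuc level, with circles for the knockdown arm and squares for the inhibitor arm and filled symbols for shOgt and OSMI-1. Ftl1 leads in all 4 groups and Osgin1, Gclm and Slc7a11 are the lowest 3; the arms were scaled separately, so circles are not to be compared with squares.

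After knockdown, 7 of the 36 genes rose and 8 fell, 15 in all or 41.7%, where 31.8% of the 12136 tested genes were called (15.4% higher and 16.4% lower). The median log2 fold change of the 36 was -0.01, and 0.01 over all tested genes. After OSMI-1, 9 rose and 5 fell, 14 in all or 38.9%, where 24.8% of the 11349 tested genes were called (11.6% higher and 13.2% lower), and the median was 0.08, against 0.00 over all tested genes. The NRF2 gene itself rose in both arms and glutathione reductase fell in both. Of the targets often used to read NRF2 activity, Nqo1 fell after knockdown, Hmox1 rose after OSMI-1, and Srxn1 and Gclm were not called in either arm. Among other members, Blvrb and Slc7a11 fell after knockdown, Me1 and Txnrd1 fell after OSMI-1, and Gss, Ftl1 and Gstm1 rose in both arms. The calls of Nfe2l2 and Gss after OSMI-1 and of Ftl1 after knockdown were lost when some single libraries were left out. Without the 3 libraries that stood apart 9 rose and 8 fell after knockdown, with Gclm, Prdx2 and Sod1 added and Sod2 lost. Without the corresponding 2 after OSMI-1, 8 rose and 7 fell, with Blvrb and Slc7a11 added and Gss lost. The shares over all tested genes above come from the fits with all libraries, so these reduced counts are not to be set against them.

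**Figure D2:**
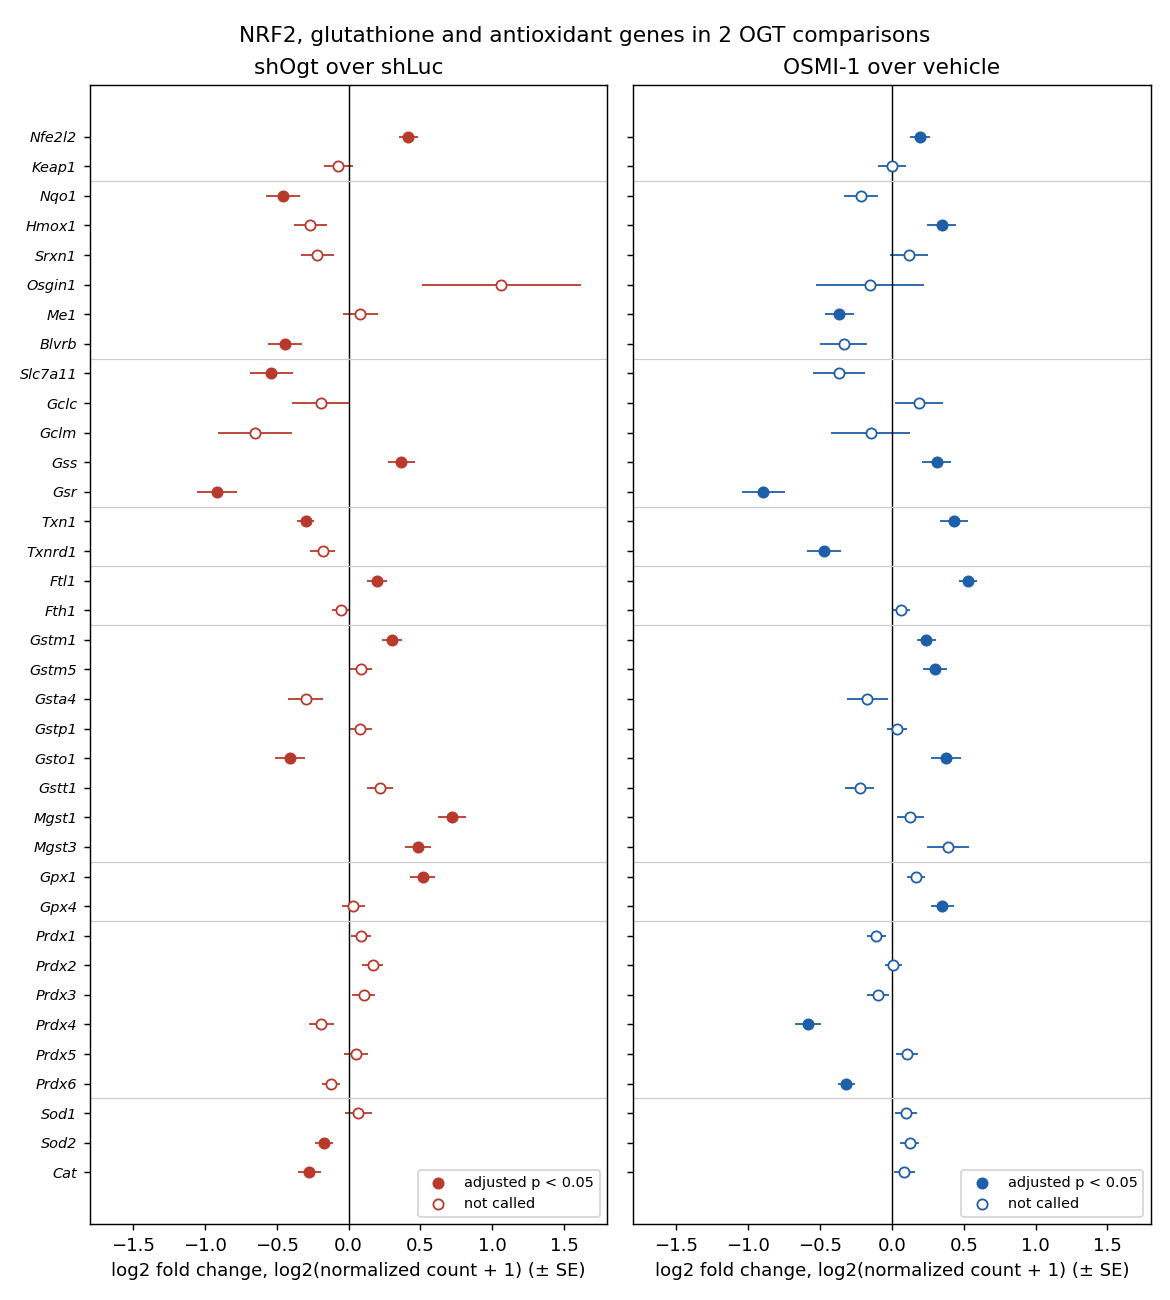
Log2 fold change ± SE of each of the 36 genes, shOgt over shLuc on the left and OSMI-1 over vehicle on the right, with filled symbols for limma adjusted p under 0.05 and grey lines between roles. Gsr lies near -0.90 in both panels, whereas Txn1 and Gsto1 lie below 0 on the left and above 0 on the right.

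Of the factor and its sensor, Nfe2l2 rose and Keap1 was not called in either arm. Nfe2l2 had 2415, 2556, 2403, 2196 and 2283 in shOgt replicates 1, 2, 3, 5 and 6, and in shLuc 1627 at the lowest, 1761 at the median and 1907 at the highest (log2 fold change 0.42 ± 0.07, limma adjusted p = 0.00011). Each shOgt library lay above each shLuc library. In the inhibitor arm Nfe2l2 had 1226, 1148, 1214, 1068 and 1061 in OSMI-1 replicates 1, 2, 4, 5 and 6, and in vehicle 945 at the lowest, 998 at the median and 1038 at the highest (log2 fold change 0.20 ± 0.07, limma adjusted p = 0.036), again without overlap. The OSMI-1 call was lost without OSMI-1 replicate 1, 2 or 4 or vehicle replicate 3, 4 or 6 (limma adjusted p from 0.056 to 0.086). Keap1 averaged 951 ± 162 in shOgt and 993 ± 97.9 in shLuc (log2 fold change -0.07 ± 0.10, limma adjusted p = 0.63). It averaged 394 ± 42.9 in OSMI-1 and 393 ± 40.2 in vehicle (log2 fold change 0.00 ± 0.10, limma adjusted p = 0.99).

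Of the 6 classical targets outside glutathione metabolism, 2 fell after knockdown and the other 4 were not called, and after OSMI-1 Hmox1 rose, Me1 fell and 4 were not called. Nqo1, a quinone reductase and the standard readout of NRF2, had 277, 233, 281, 293 and 240.3 in shOgt replicates 1, 2, 3, 5 and 6, and in shLuc 294 at the lowest, 363 at the median and 423 at the highest (log2 fold change -0.45 ± 0.12, limma adjusted p = 0.006). The highest shOgt value lay just under the lowest shLuc value. After OSMI-1 Nqo1 stood at 192 ± 31.4, against 220.4 ± 10.1 in vehicle (log2 fold change -0.21 ± 0.12, limma adjusted p = 0.19). Blvrb, a flavin and biliverdin reductase, had 376, 352, 438, 429 and 338 in shOgt replicates 1, 2, 3, 5 and 6, and in shLuc 418 at the lowest, 540.0 at the median and 634 at the highest (log2 fold change -0.44 ± 0.12, limma adjusted p = 0.0075), with shOgt replicates 3 and 5 inside the shLuc range. It averaged 139 ± 22.8 in OSMI-1 and 178 ± 38.5 in vehicle (log2 fold change -0.34 ± 0.16, limma adjusted p = 0.14). Vehicle replicate 1 had 105, against 170.2 to 214 in the other 5 vehicle libraries, and without it Blvrb was called lower (log2 fold change -0.48, limma adjusted p = 0.0099).

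Hmox1, the inducible heme oxygenase, had 946, 975, 1016, 652 and 790.4 in OSMI-1 replicates 1, 2, 4, 5 and 6, and in vehicle 630.0 at the lowest, 670.5 at the median and 761 at the highest (log2 fold change 0.35 ± 0.10, limma adjusted p = 0.013). OSMI-1 replicate 5 lay within the vehicle range and the other 4 lay above it. After knockdown Hmox1 averaged 879 ± 111, against 1065 ± 186 in shLuc (log2 fold change -0.27 ± 0.11, limma adjusted p = 0.08), and it was called lower without shOgt replicate 3 (0.026) or shLuc replicate 6 (0.034). Me1, the cytosolic malic enzyme, which makes NADPH, had 414, 408, 429, 414 and 411 in OSMI-1 replicates 1, 2, 4, 5 and 6, and in vehicle 424 at the lowest, 554 at the median and 649 at the highest (log2 fold change -0.36 ± 0.10, limma adjusted p = 0.0092). Only OSMI-1 replicate 4 reached the wide vehicle range, and the other 4 lay below it. Me1 averaged 520.4 ± 89.6 in shOgt and 489 ± 63.1 in shLuc (log2 fold change 0.08 ± 0.12, limma adjusted p = 0.66). Srxn1, which repairs overoxidised peroxiredoxins, was not called in either arm, at 322 ± 41.9 in shOgt, 374 ± 38.8 in shLuc, 166 ± 25.3 in OSMI-1 and 152 ± 17.4 in vehicle. Osgin1 had too few counts for a firm statement, at 20.5 to 38.4 in shOgt and 2.02 to 47.4 in shLuc (log2 fold change 1.06 ± 0.55, limma adjusted p = 0.16).

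Of the 5 genes that supply, build and recycle glutathione, Gss rose and Slc7a11 and Gsr fell after knockdown, and Gss rose and Gsr fell after OSMI-1. Gsr, the reductase that returns oxidised glutathione to its reduced form with NADPH, showed the lowest log2 fold change of the 36 in each arm. It had 128, 165, 165, 148 and 143 in shOgt replicates 1, 2, 3, 5 and 6, and in shLuc 217 at the lowest, 282 at the median and 342 at the highest (log2 fold change -0.92 ± 0.14, limma adjusted p = 5.8e-05). In the inhibitor arm it had 74.7, 98.3, 105, 100.2 and 82.5 in OSMI-1 replicates 1, 2, 4, 5 and 6, and in vehicle 135 at the lowest, 172 at the median and 219 at the highest (log2 fold change -0.89 ± 0.15, limma adjusted p = 9.3e-05). No shOgt library reached a shLuc library and no OSMI-1 library a vehicle library. Gss, which adds glycine in the final step of glutathione synthesis, had 1444, 1264, 1306, 1212 and 1138 in shOgt replicates 1, 2, 3, 5 and 6, and in shLuc 851 at the lowest, 960.4 at the median and 1168 at the highest (log2 fold change 0.37 ± 0.10, limma adjusted p = 0.0057). After OSMI-1 it had 508, 556, 418, 502 and 364 in OSMI-1 replicates 1, 2, 4, 5 and 6, and in vehicle 340.2 at the lowest, 385 at the median and 394 at the highest (log2 fold change 0.31 ± 0.10, limma adjusted p = 0.027). Groups overlapped in both arms, and the OSMI-1 call was lost without OSMI-1 replicate 1, 2 or 5 or vehicle replicate 2 or 4 (limma adjusted p from 0.057 to 0.094) and without the 2 libraries that stood apart (0.072).

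Slc7a11, the cystine importer that supplies glutathione synthesis, had 109, 136, 106, 128 and 133 in shOgt replicates 1, 2, 3, 5 and 6, and in shLuc 137 at the lowest, 183 at the median and 205 at the highest (log2 fold change -0.54 ± 0.15, limma adjusted p = 0.0088). The groups came close without overlap. It averaged 95.1 ± 29.6 in OSMI-1 and 119.5 ± 17.5 in vehicle (log2 fold change -0.37 ± 0.18, limma adjusted p = 0.15), and was called lower without OSMI-1 replicate 5 (0.042) or without it and vehicle replicate 1 (0.017). Slc7a11 and Txnrd1 were the 2 members with the 7-base sequence AACATGC in an annotated 3′ untranslated region, a sequence that earlier work on these data found often in genes lower after knockdown. Among 1155 tested genes with that sequence 28.3% fell after knockdown, against 15.6% of 10194 without it, and after OSMI-1 the shares were 11.0% of 1113 and 13.6% of 9583. Because the sequence was picked from these same data, the higher share after knockdown is no separate test of it. The length of the untranslated regions was not taken into account either. Txnrd1 was not called after knockdown (log2 fold change -0.18, limma adjusted p = 0.11). The part of the sequence in the lower Slc7a11 level was not tested. The catalytic and modifier subunits of glutamate-cysteine ligase, the rate-limiting enzyme of glutathione synthesis, were not called in either arm. Gclc averaged 116 ± 37.7 in shOgt and 128 ± 21.5 in shLuc (log2 fold change -0.19 ± 0.20, limma adjusted p = 0.5). Gclc averaged 79.2 ± 6.78 in OSMI-1 and 70.2 ± 13.2 in vehicle (log2 fold change 0.19 ± 0.17, limma adjusted p = 0.45). Gclm averaged 34.4 ± 7.38 in shOgt and 55.0 ± 14.0 in shLuc (log2 fold change -0.65 ± 0.26, limma adjusted p = 0.062). Gclm averaged 44.1 ± 13.9 in OSMI-1 and 50.6 ± 21.2 in vehicle (log2 fold change -0.15 ± 0.27, limma adjusted p = 0.74). After knockdown Gclm was called lower without shOgt replicate 3, shLuc replicate 1 or shLuc replicate 3 (limma adjusted p from 0.036 to 0.047) and without all 3 (0.011).

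**Figure D3:**
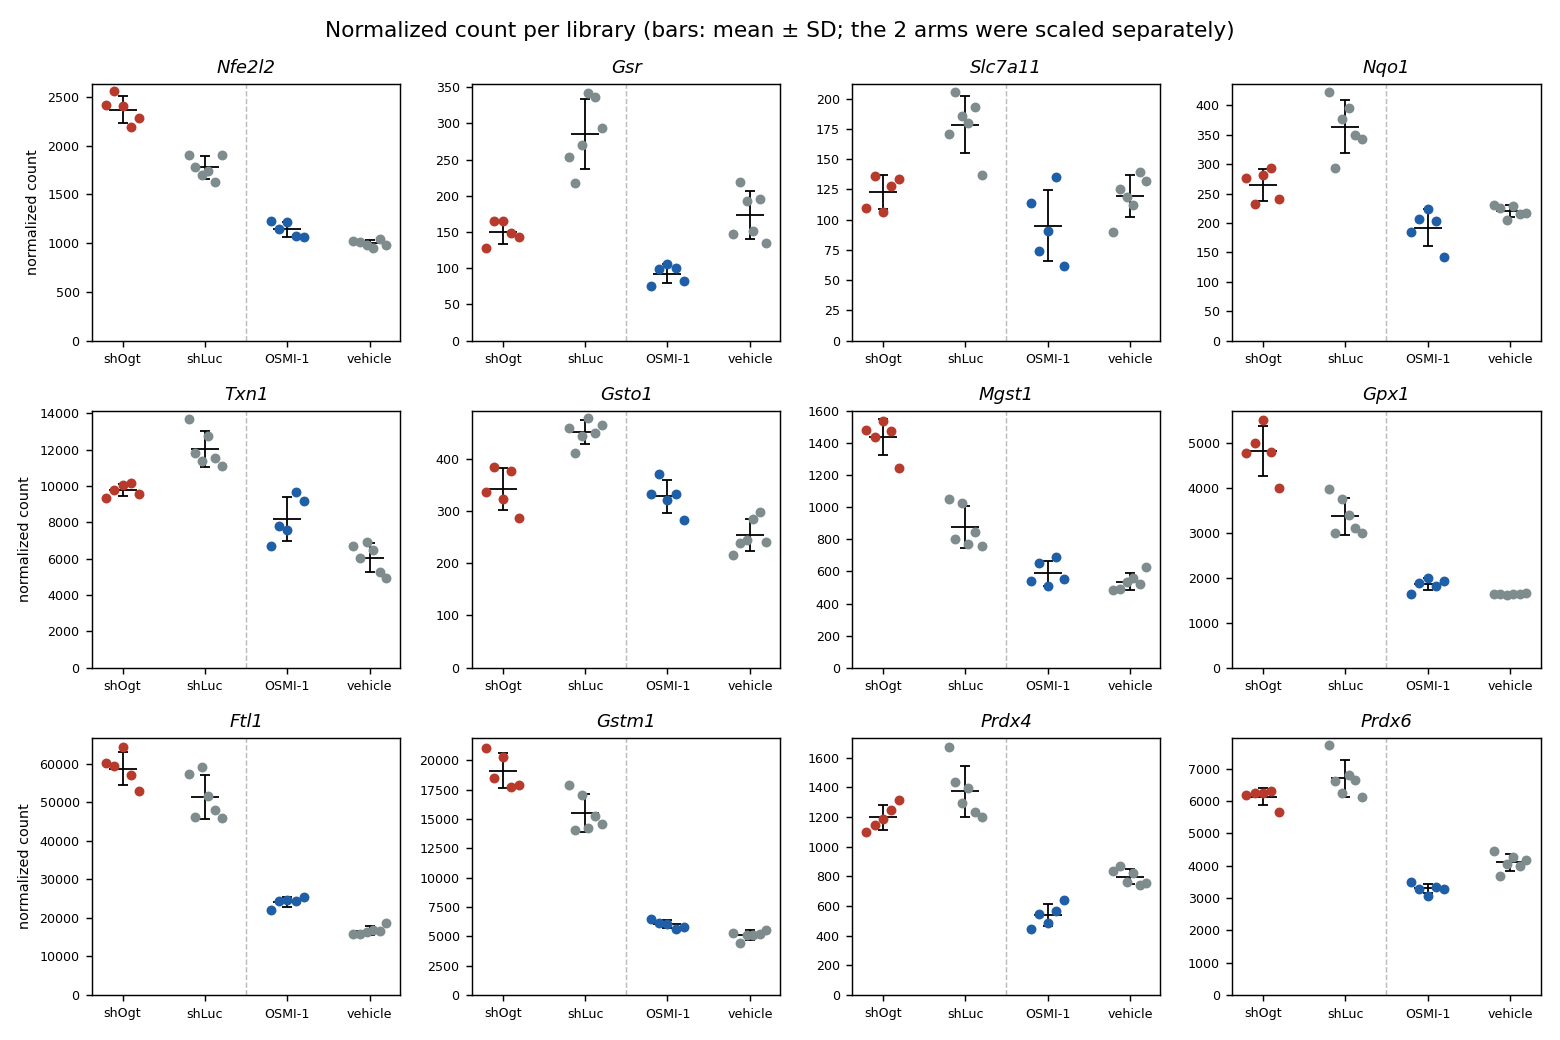
Normalized count of each library for 12 of the genes, with shOgt left of shLuc and OSMI-1 left of vehicle, the bar and whiskers giving the mean ± SD. The groups of both arms are apart for Nfe2l2 and Gsr, and Txn1 is lower in shOgt than in shLuc but, on average, higher in OSMI-1 than in vehicle.

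Thioredoxin went in opposite directions in the arms. Txn1, the small dithiol protein that reduces peroxiredoxins, had 9324, 9763, 10065, 10144 and 9558 in shOgt replicates 1, 2, 3, 5 and 6, and in shLuc 11106 at the lowest, 11669.7 at the median and 13691 at the highest (log2 fold change -0.30 ± 0.06, limma adjusted p = 0.00078), without overlap. In the inhibitor arm it had 6690.2, 7792, 7578, 9678 and 9143 in OSMI-1 replicates 1, 2, 4, 5 and 6, and in vehicle 4911 at the lowest, 6265 at the median and 6893 at the highest (log2 fold change 0.43 ± 0.09, limma adjusted p = 0.0015). Only OSMI-1 replicate 1 of the 5 lay within the vehicle range. Txnrd1, the selenoenzyme that reduces thioredoxin with NADPH, had 370.0, 442, 445, 272 and 325 in OSMI-1 replicates 1, 2, 4, 5 and 6, and in vehicle 436 at the lowest, 518 at the median and 576 at the highest (log2 fold change -0.47 ± 0.12, limma adjusted p = 0.005), with 2 OSMI-1 libraries just inside the vehicle range. Txnrd1 averaged 565 ± 28.5 in shOgt and 641 ± 41.2 in shLuc (log2 fold change -0.18 ± 0.08, limma adjusted p = 0.11). Thioredoxin and its reductase were thus called in opposite directions after OSMI-1.

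Of the ferritin subunits, which enclose iron, the light chain rose and the heavy chain was not called. Ftl1 had 21907, 24252, 24583, 24442 and 25278 in OSMI-1 replicates 1, 2, 4, 5 and 6, and in vehicle 15823 at the lowest, 16418 at the median and 18759 at the highest (log2 fold change 0.53 ± 0.06, limma adjusted p = 1.2e-06). This was the smallest adjusted p of the 36 genes after OSMI-1, with no overlap. After knockdown Ftl1 had 60145, 59288, 64204, 56915 and 52794 in shOgt replicates 1, 2, 3, 5 and 6, and in shLuc 45948 at the lowest, 49866 at the median and 59028 at the highest (log2 fold change 0.20 ± 0.07, limma adjusted p = 0.039), with 2 shOgt libraries inside the shLuc range. That call was lost without shOgt replicate 1, 2, 3 or 5 or shLuc replicate 2, 4, 5 or 6 (limma adjusted p from 0.055 to 0.093) and with no filter on low values (0.16). Fth1 averaged 24930.1 ± 1282 in shOgt and 25939.7 ± 1934 in shLuc (log2 fold change -0.06 ± 0.06, limma adjusted p = 0.5). Fth1 averaged 20336 ± 1350.0 in OSMI-1 and 19437 ± 745 in vehicle (log2 fold change 0.06 ± 0.06, limma adjusted p = 0.49).

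The 8 transferase genes, whose products couple glutathione to electrophiles, were called in part, 3 higher and 1 lower after knockdown, and 3 higher and 0 lower after OSMI-1. Mgst1, a microsomal transferase and peroxidase, showed the highest called log2 fold change of the 36 after knockdown. It had 1483, 1436, 1536, 1478 and 1245 in shOgt replicates 1, 2, 3, 5 and 6, and in shLuc 759 at the lowest, 823 at the median and 1051 at the highest (log2 fold change 0.72 ± 0.10, limma adjusted p = 1.4e-05). Each shOgt library lay above each shLuc library, and after OSMI-1 Mgst1 averaged 588 ± 77.9, against 536 ± 53.4 in vehicle (log2 fold change 0.13 ± 0.09, limma adjusted p = 0.35). Its relative Mgst3 had 623, 599, 618, 629.6 and 525 in shOgt replicates 1, 2, 3, 5 and 6, and in shLuc 392 at the lowest, 437 at the median and 448 at the highest (log2 fold change 0.48 ± 0.09, limma adjusted p = 0.00039), without overlap. Mgst3 averaged 149 ± 18.7 in OSMI-1 and 114 ± 19.4 in vehicle (log2 fold change 0.39 ± 0.14, limma adjusted p = 0.051), and was called higher without vehicle replicate 1 (0.048) or 6 (0.036).

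Gstm1, the most abundant of the cytosolic mu-class transferases here, rose in both arms. It had 21060.4, 18516, 20263, 17710.4 and 17915 in shOgt replicates 1, 2, 3, 5 and 6, and in shLuc 14072 at the lowest, 14887 at the median and 17903 at the highest (log2 fold change 0.30 ± 0.07, limma adjusted p = 0.0026), with shOgt replicate 5 alone just inside the shLuc range. After OSMI-1 it had 6492, 6104, 6065, 5631 and 5792 in OSMI-1 replicates 1, 2, 4, 5 and 6, and in vehicle 4385 at the lowest, 5159 at the median and 5548 at the highest (log2 fold change 0.24 ± 0.06, limma adjusted p = 0.0082), without overlap. Gstm5 averaged 1154 ± 148 in OSMI-1 and 932 ± 65.6 in vehicle (log2 fold change 0.30 ± 0.08, limma adjusted p = 0.0093). Gstm5 averaged 2683 ± 167 in shOgt and 2534 ± 263 in shLuc (log2 fold change 0.09 ± 0.08, limma adjusted p = 0.42). Reads of mu-class genes, of Gstp1 and of the ferritins can be split among near-identical copies by the authors' counting, so these levels are uncertain to that extent.

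Gsto1, an omega-class transferase with thioltransferase activity, was called in opposite directions. It had 335, 385, 323, 377 and 287 in shOgt replicates 1, 2, 3, 5 and 6, and in shLuc 411 at the lowest, 454 at the median and 479 at the highest (log2 fold change -0.41 ± 0.10, limma adjusted p = 0.0048), without overlap. In the inhibitor arm it had 333, 371, 322, 333 and 283 in OSMI-1 replicates 1, 2, 4, 5 and 6, and in vehicle 216 at the lowest, 242 at the median and 297 at the highest (log2 fold change 0.37 ± 0.10, limma adjusted p = 0.011). OSMI-1 replicate 6 was the only one inside the vehicle range. Gstt1, of the theta class, was not called in either arm, at 912 ± 71.0 in shOgt and 784 ± 84.1 in shLuc (log2 fold change 0.22 ± 0.09, limma adjusted p = 0.07). Gstt1 averaged 279 ± 26.5 in OSMI-1 and 326 ± 33.5 in vehicle (log2 fold change -0.22 ± 0.10, limma adjusted p = 0.11). Without shLuc replicate 1 (0.04) or 5 (0.046) it was called higher after knockdown. Gsta4, which clears the lipid aldehyde hydroxynonenal, averaged 201 ± 27.4 in shOgt and 246 ± 16.6 in shLuc (log2 fold change -0.30 ± 0.12, limma adjusted p = 0.072; 0.03 without shOgt replicate 3). Gsta4 averaged 114 ± 25.2 in OSMI-1 and 127 ± 7.98 in vehicle (log2 fold change -0.17 ± 0.14, limma adjusted p = 0.42). Gstp1, of the pi class, averaged 4881 ± 600.5 in shOgt and 4598 ± 439.5 in shLuc (log2 fold change 0.08 ± 0.08, limma adjusted p = 0.49). Gstp1 averaged 1997 ± 178 in OSMI-1 and 1945 ± 86.3 in vehicle (log2 fold change 0.03 ± 0.07, limma adjusted p = 0.76).

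Of the glutathione peroxidase genes, Gpx1 was called higher after knockdown and Gpx4 after OSMI-1. Gpx1, the cytosolic peroxidase for hydrogen peroxide, had 4781, 5006, 5527, 4807 and 3997 in shOgt replicates 1, 2, 3, 5 and 6, and in shLuc 2994 at the lowest, 3261 at the median and 3970.1 at the highest (log2 fold change 0.52 ± 0.09, limma adjusted p = 0.00016). The groups were apart, although the lowest shOgt and the highest shLuc library nearly met. After OSMI-1 Gpx1 averaged 1854 ± 134, against 1646 ± 19.2 in vehicle (log2 fold change 0.17 ± 0.06, limma adjusted p = 0.054). DESeq2 called that rise (adjusted p = 0.023), as limma did without OSMI-1 replicate 1 (0.015). Gpx4, which reduces lipid peroxides in membranes and guards against ferroptosis, had 1124, 1504, 1487, 1536 and 1356 in OSMI-1 replicates 1, 2, 4, 5 and 6, and in vehicle 1015 at the lowest, 1111 at the median and 1157 at the highest (log2 fold change 0.35 ± 0.08, limma adjusted p = 0.0023). OSMI-1 replicate 1 lay within the vehicle range and the other 4 above it. Gpx4 averaged 2833 ± 228 in shOgt and 2779 ± 303 in shLuc (log2 fold change 0.03 ± 0.08, limma adjusted p = 0.8).

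The peroxiredoxins, thiol peroxidases that thioredoxin keeps reduced except for Prdx6, were not called after knockdown, whereas after OSMI-1 Prdx4 and Prdx6 fell. After knockdown the log2 fold changes of the 6 genes lay between -0.19 and 0.17; limma, edgeR and DESeq2 called 0 of 6, and 2 had an unadjusted limma p under 0.05. Prdx4, the peroxiredoxin of the endoplasmic reticulum, had 444, 548, 486, 563 and 637 in OSMI-1 replicates 1, 2, 4, 5 and 6, and in vehicle 741 at the lowest, 793 at the median and 868 at the highest (log2 fold change -0.58 ± 0.09, limma adjusted p = 3.3e-05). Prdx6, which has a single active cysteine and uses glutathione, had 3485, 3290.5, 3069, 3349 and 3276 in OSMI-1 replicates 1, 2, 4, 5 and 6, and in vehicle 3692 at the lowest, 4114 at the median and 4449 at the highest (log2 fold change -0.32 ± 0.06, limma adjusted p = 0.00052). Neither gene's groups overlapped. In the knockdown arm Prdx4 averaged 1198 ± 85.2 in shOgt and 1372 ± 172 in shLuc (log2 fold change -0.19 ± 0.09, limma adjusted p = 0.11). Prdx6 averaged 6131 ± 266 in shOgt and 6697 ± 561 in shLuc (log2 fold change -0.12 ± 0.06, limma adjusted p = 0.15). The cytosolic Prdx1 averaged 7937 ± 777 in shOgt and 7470.3 ± 512 in shLuc. Its cytosolic relative Prdx2 averaged 7928 ± 631 in shOgt and 7062 ± 751 in shLuc. The mitochondrial Prdx3 averaged 1385 ± 138 in shOgt and 1284 ± 84.7 in shLuc. Prdx5, found in several compartments, averaged 2456 ± 209.5 in shOgt and 2379 ± 275 in shLuc. Prdx2 after knockdown (log2 fold change 0.17 ± 0.07, limma adjusted p = 0.086) was called higher without shOgt replicate 6 (0.04), without shLuc replicate 1 (0.014) and without the 3 libraries that stood apart (0.0045). These 4 genes were not called after OSMI-1 either, with log2 fold changes between -0.11 and 0.11.

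Of the superoxide dismutases and catalase, Sod2 and Cat fell after knockdown and Sod1 was not called. Cat, the peroxisomal catalase, had 1333, 1398, 1225, 1400.0 and 1426 in shOgt replicates 1, 2, 3, 5 and 6, and in shLuc 1422 at the lowest, 1667 at the median and 1793 at the highest (log2 fold change -0.27 ± 0.08, limma adjusted p = 0.011), with 1 shOgt library just above the lowest shLuc library. Sod2, the mitochondrial dismutase, had 2717, 2769.9, 2528, 2742 and 2525 in shOgt replicates 1, 2, 3, 5 and 6, and in shLuc 2798 at the lowest, 2969 at the median and 3274 at the highest (log2 fold change -0.17 ± 0.06, limma adjusted p = 0.041). Although its groups did not overlap, the Sod2 call was lost without any of the 5 shOgt libraries or shLuc replicate 1, 2, 3, 5 or 6 (limma adjusted p from 0.052 to 0.09), with no filter on low values (0.059) and without the 3 libraries that stood apart (0.14). Sod1, the cytosolic dismutase, averaged 13656 ± 1506 in shOgt and 13099 ± 2131 in shLuc (log2 fold change 0.07 ± 0.09, limma adjusted p = 0.62; log2 fold change 0.15, limma adjusted p = 0.043 without the 3 libraries that stood apart). After OSMI-1 limma, edgeR and DESeq2 called 0 of the 3 genes, 0 had an unadjusted limma p under 0.05, and the log2 fold changes lay between 0.09 and 0.12. There Cat averaged 907 ± 54.0 in OSMI-1 and 855 ± 71.9 in vehicle. Sod2 averaged 1336 ± 94.1 in OSMI-1 and 1225 ± 60.3 in vehicle, and Sod1 averaged 3949.8 ± 516 in OSMI-1 and 3672 ± 218 in vehicle.

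Over all 36 genes, shOgt and shLuc libraries did not overlap for 10 genes (27.8%, against 18.8% of all tested genes), and OSMI-1 and vehicle libraries did not overlap for 6 genes (16.7%, against 14.0%). Seen across arms, which share no libraries, 7 genes were called in both, 46.7% of the 15 called after knockdown and 50% of the 14 called after OSMI-1. Over all 11269 genes tested in both arms those shares were 35.2% and 46.4%. Nfe2l2, Gss, Ftl1 and Gstm1 rose in both arms and Gsr fell in both, so that 5 of the 7 went the same way (71.4%, against 72.4% of all genes called in both), and Txn1 and Gsto1 went opposite ways. Of these, the calls of Nfe2l2 and Gss after OSMI-1 and of Ftl1 after knockdown were lost in some alternative fits, as given above. The calls of Gsr, Gstm1, Txn1 and Gsto1 held in all 20 alternative fits of each arm.

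The log2 fold changes differed between the arms for 12 of the 36 genes (33.3%), where 23.9% of the genes tested in both arms differed. The test set the difference of the limma estimates against its combined standard error and adjusted over all these genes. The arms differ in agent, duration and scaling together, and these cannot be told apart. Reads of the ribosomal RNA precursor gene Rn45s also differed, at 0.921 to 1.23% of reads in shOgt and 0.938 to 1.25% in shLuc, but 6.69 to 10.5% in OSMI-1 and 4.81 to 14.2% in vehicle libraries. Its part in the differences was not tested. Knockdown minus OSMI-1, the differences with the smallest adjusted p were those of Txn1 (-0.73 ± 0.11, adjusted p = 3.8e-06) and Gsto1 (-0.78 ± 0.15, adjusted p = 7.5e-05), the members with opposite calls. Mgst1 (0.59 ± 0.14, adjusted p = 0.00095) and Gpx1 (0.35 ± 0.11, adjusted p = 0.017) had the higher log2 fold change after knockdown. For Hmox1 (-0.61 ± 0.15, adjusted p = 0.0022) and Ftl1 (-0.33 ± 0.09, adjusted p = 0.008) OSMI-1 gave the higher log2 fold change. The same held for the peroxide and superoxide enzymes Cat (-0.36 ± 0.11, adjusted p = 0.013) and Sod2 (-0.30 ± 0.09, adjusted p = 0.016), which were called after knockdown alone. Gstt1 (0.45 ± 0.13, adjusted p = 0.013) and Prdx4 (0.39 ± 0.12, adjusted p = 0.018) were also higher on that scale after knockdown, Gstt1 without a call in either arm. Me1 (0.45 ± 0.16, adjusted p = 0.036) and Gpx4 (-0.32 ± 0.11, adjusted p = 0.034) completed the 12. The Me1 difference lost its call without shOgt replicate 1, 2 or 5, shLuc replicate 2 or 3 or vehicle replicate 2, 3 or 4 (adjusted p up to 0.094). The Gpx4 difference lost it without shOgt replicate 2 or 6, shLuc replicate 1, 3 or 4, OSMI-1 replicate 2, 4 or 5 or vehicle replicate 1 or 3 (up to 0.077), and without the libraries that stood apart (0.16), as did the Sod2 difference there (0.076). For Gsr the difference was -0.02 ± 0.20, adjusted p = 0.96. The Prdx1 difference was called without shOgt replicate 3 (0.044) or the libraries that stood apart (0.049), and that of Prdx6 without shLuc replicate 1 (0.035).

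**Figure D4:**
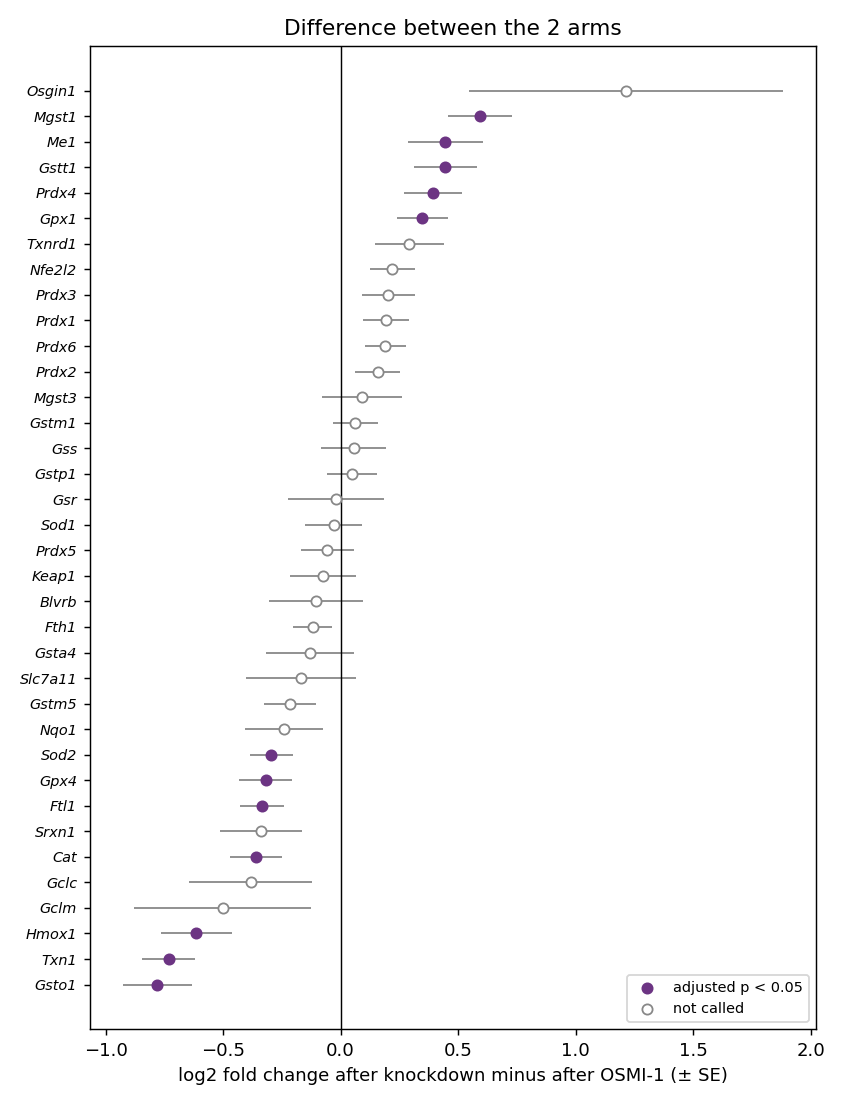
Log2 fold change after knockdown minus that after OSMI-1, ± SE, for each of the 36 genes in order of the difference, with filled symbols for an adjusted p under 0.05. Gsto1, Txn1 and Hmox1 lie farthest to the left and Mgst1 farthest to the right of the called genes, while Gsr lies at -0.02.

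Other genes of the same systems were taken from 4 lists, and the share called in each stands beside that over all tested genes. Of 17 listed regulators of NRF2 in the tables, 16 were tested after knockdown, and 4 rose and 3 fell (43.8%, against 31.8% of all tested genes). Sqstm1, the autophagy receptor p62, which competes for KEAP1, had 6196 ± 177 in shOgt against 4782 ± 347 in shLuc (log2 0.38, limma adjusted p = 8.8e-05). Dpp3, which also binds KEAP1, had 2404 ± 245 in shOgt against 1710.1 ± 164 in shLuc (log2 0.49, limma adjusted p = 0.00013). The coactivator gene Crebbp had 222 ± 28.7 in shOgt against 327 ± 28.8 in shLuc (log2 -0.56, limma adjusted p = 0.0013), and Palb2, another KEAP1 partner, 30.5 ± 18.0 in shOgt against 61.1 ± 16.4 in shLuc (log2 -1.14, limma adjusted p = 0.018). After OSMI-1, 2 of 15 rose and 13 were not called (13.3%, against 24.8%). Those 2 were Btrc, whose product marks NRF2 for degradation without KEAP1, at 449 ± 30.7 in OSMI-1 against 336 ± 35.4 in vehicle (log2 0.42, limma adjusted p = 0.0016), and the NRF2 relative Nfe2l1, at 1352 ± 206 in OSMI-1 against 1027 ± 53.1 in vehicle (log2 0.38, limma adjusted p = 0.0023).

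Of 26 further NRF2-linked genes in the tables, 23 were tested in each arm. After knockdown 8 rose and 2 fell (43.5%, against 31.8%). The NADPH-making isocitrate dehydrogenase gene Idh1 had 2244 ± 236 in shOgt against 1500.5 ± 83.4 in shLuc (log2 0.58, limma adjusted p = 1.2e-05) and the prostaglandin and alkenal reductase gene Ptgr1 480.3 ± 15.3 in shOgt against 301 ± 18.0 in shLuc (log2 0.67, limma adjusted p = 2.2e-05). The aldehyde oxidase gene Aox1 had 281 ± 31.3 in shOgt against 159 ± 45.8 in shLuc (log2 0.87, limma adjusted p = 0.0013). Tkt, of the pentose phosphate pathway, fell (log2 -0.33, limma adjusted p = 0.00089). After OSMI-1, 5 rose and 1 fell (26.1%, against 24.8%, so near the share over all genes). The epoxide hydrolase gene Ephx1 had 6296 ± 415 in OSMI-1 against 4430.3 ± 312 in vehicle (log2 0.51, limma adjusted p = 3.2e-06). The carbonyl reductase gene Cbr1 had 380.0 ± 30.6 in OSMI-1 against 293 ± 26.1 in vehicle (log2 0.37, limma adjusted p = 0.0049). Of the metal-binding metallothioneins, Mt1 rose (log2 0.33, limma adjusted p = 0.0073) and Mt2 fell (log2 -0.64, limma adjusted p = 0.0039).

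Of 37 further glutathione genes, 29 were tested after knockdown, and 6 rose and 3 fell (31%, near the 31.8% of all tested genes). The mu-class genes Gstm2 (302 ± 38.4 in shOgt against 143 ± 35.1 in shLuc, log2 1.10, limma adjusted p = 5.3e-05) and Gstm6 (263 ± 32.4 in shOgt against 166 ± 27.5 in shLuc, log2 0.67, limma adjusted p = 0.0012) rose beside Gstm1. Gpx8, of the endoplasmic reticulum, had 464 ± 100.4 in shOgt against 253 ± 30.7 in shLuc (log2 0.85, limma adjusted p = 1e-04), and Chac1, which breaks glutathione down, had 252 ± 45.9 in shOgt against 384 ± 51.7 in shLuc (log2 -0.61, limma adjusted p = 0.0016). After OSMI-1, 25 were tested, and 4 rose and 4 fell (32%, against 24.8%). Slc3a2, the heavy chain that pairs with Slc7a11 and other transporters, had 7619.8 ± 700.5 in OSMI-1 against 5220.1 ± 206 in vehicle (log2 0.54, limma adjusted p = 1.3e-06). Hagh, the glyoxalase that releases glutathione, rose (log2 0.50, limma adjusted p = 0.00023), and the neutral amino acid transporter gene Slc1a4 (log2 -0.57, limma adjusted p = 0.00023) and Gpx8 (log2 -0.45, limma adjusted p = 0.0056) fell.

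Of 25 further thiol and reactive oxygen genes, 21 were tested in each arm. After knockdown 8 rose and 6 fell (66.7%, against 31.8%). The methionine sulfoxide reductase genes Msrb2 (502 ± 50.4 in shOgt against 308 ± 27.5 in shLuc, log2 0.70, limma adjusted p = 4.4e-05) and Msrb3 (156 ± 32.9 in shOgt against 69.8 ± 11.4 in shLuc, log2 1.14, limma adjusted p = 9.7e-05) rose, as did the p53 target Sesn1 (log2 0.64, limma adjusted p = 5.6e-05). The thioredoxin-like gene Txnl1 fell (log2 -0.56, limma adjusted p = 1e-04). After OSMI-1, 3 rose and 5 fell (38.1%, against 24.8%). The stress-induced Sesn2 (1522 ± 180.0 in OSMI-1 against 1062 ± 70.3 in vehicle, log2 0.51, limma adjusted p = 3.1e-05) and the copper chaperone gene of SOD1, Ccs (430.3 ± 41.0 in OSMI-1 against 299 ± 19.2 in vehicle, log2 0.52, limma adjusted p = 0.00016), rose. The extracellular dismutase gene Sod3 (292 ± 65.4 in OSMI-1 against 465 ± 58.0 in vehicle, log2 -0.69, limma adjusted p = 0.00028) and the mitochondrial NADPH-making Idh2 (log2 -0.33, limma adjusted p = 0.00044) fell.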

How the data were processed

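Poly(A) RNA was sequenced in 22 libraries, grouped by the labels' titles. Per the submitters' processing notes, reads were aligned with STAR, counted with RSEM and compared with DESeq2, versions not given in the sources used here; the build named there is human (hg38) although the tables hold mouse genes, so coordinates here are RefSeq's and GENCODE's on GRCm38. The library preparation is named differently in the labels (strand-specific poly(A) kit) and the series text (Smart-Seq2). Per the file headers, the deposited tables hold normalized counts, a signal that is never negative, with the authors' mean, log2 fold change, Wald statistic (a score) and p-value. All positive values of a library were whole multiples of 1 step (within 0.001), so reads were recovered.

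Genes were kept by edgeR's filterByExpr (minimum count 10, minimum total 15; 12136 and 11349 genes). The main test was limma 3.58.1 (trend = TRUE), fitted in each arm on log2(normalized count + 1) with the group as the single term, Benjamini-Hochberg adjusted over all genes, two-sided, called at 0.05. Arms were compared by the difference of estimates on a t distribution with Satterthwaite degrees of freedom. Alternatives were edgeR 4.0.16, DESeq2 1.42.0, the authors' deposited p-values, TMM scaling, other pseudocounts, no filter, each library left out, a replicate block, and leaving out the libraries that stood apart. The fitting code was tested on simulated counts. Exon lengths and 3′ untranslated regions came from GENCODE on GRCm38.

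The members, lists, named-gene rule (members called in either arm or differing between arms, Nfe2l2, Keap1, and up to 4 called genes of each other list per arm by adjusted p) and the 7-base search were chosen with earlier results of these data known.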

Additional observations from a re-analysis of the deposited data

Results flagged for a closer look

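In 5 of 144 sets of libraries (36 genes in 4 groups) a single library lay far from the rest of its group. Chance alone gives about 1 in 20, so these 5 sets are no more than chance would give. These were Keap1 in shOgt replicate 1, with a normalized count of 1230 against 911 in the next library, and Fth1 (22700) and Prdx6 (5660), both the lowest, in shOgt replicate 6. In the inhibitor arm they were Srxn1 in OSMI-1 replicate 6 (121, the lowest) and Ftl1 in vehicle replicate 6 (18800, the highest of its group yet below every OSMI-1 library).

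The log2 fold changes of 12 genes differed between knockdown and OSMI-1 by the test of the difference itself. Knockdown minus OSMI-1, the difference was negative for Gsto1 (-0.78), Txn1 (-0.73), Hmox1 (-0.61), Cat (-0.36), Ftl1 (-0.33), Gpx4 (-0.32) and Sod2 (-0.30). It was positive for Mgst1 (0.59), Me1 (0.45), Gstt1 (0.45), Prdx4 (0.39) and Gpx1 (0.35). Under single left-out libraries 10 of the 12 differences stayed called, with adjusted p up to 0.049 for Prdx4, and those of Me1 and Gpx4 did not.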

How the results depend on the processing

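Counts of called genes stayed within 1.5 times under every alternative run, both for all genes and for the 36. Of 31 values recomputed for called members, Nfe2l2 and Keap1, 26 kept direction and side of the threshold under all 20 alternatives each. The exceptions were 4 calls lost in part (Ftl1 and Sod2 after knockdown, Gss and Nfe2l2 after OSMI-1, above) and Keap1 after OSMI-1, never called, which ran from -0.037 to 0.073 with single libraries left out and was -0.003 under TMM scaling, against 0.002; the cause was not tested. Replicate numbers did not pair the libraries throughout. Deviations of same-numbered libraries correlated between -0.04 and 0.54 in the knockdown arm and between -0.19 and 0.06 in the inhibitor arm. In the knockdown arm the same number gave the highest correlation for shOgt replicates 2 (0.123) and 3 (0.535). Replicate 6 correlated at 0.327 with its own number and at 0.506 with shLuc replicate 2. Whether libraries of the knockdown arm were paired was not settled. With the replicate block, 7 members rose and 9 fell after knockdown, 8 rose and 5 fell after OSMI-1, and 11 differed between arms; calls over all genes were 3966 and 2373, against 3855 and 2815. The member added to those lower after knockdown was Hmox1 (log2 fold change -0.31, limma adjusted p = 0.013 with the block). The block left Nfe2l2 after OSMI-1 at adjusted p = 0.1 and the Me1 difference at 0.051. Genes without a call that some alternative called are named with their values above.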

Other observations

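Of 84 further pathway genes tested in both arms, 13 were called in both, 4 higher in both, 3 lower in both and 6 in opposite directions. Of all 11269 genes tested in both arms, 1302 were called in both. The same direction held for 7 of the 13 (53.8%), against 72.4% of the 1302. With so few genes, the difference between these shares was not tested. The 13 genes are given here after their values were seen. Ccs, which loads copper into SOD1, had 1327 ± 137 in shOgt against 936 ± 134 in shLuc (log2 0.51, limma adjusted p = 0.00062) and 430.3 ± 41.0 in OSMI-1 against 299 ± 19.2 in vehicle. Idh1 had 1044 ± 72.4 in OSMI-1 against 849 ± 98.7 in vehicle (log2 0.30, limma adjusted p = 0.0091) beside its rise after knockdown, and Ephx1 and Nfe2l1 were also higher in both arms. Idh2, the mitochondrial counterpart of Idh1, had 3766 ± 407 in shOgt against 4604 ± 449.8 in shLuc (log2 -0.29, limma adjusted p = 0.0083) and 1593 ± 77.3 in OSMI-1 against 2005 ± 113 in vehicle, and Txnl1 and Slc1a4 were lower in both as well.

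Those in opposite directions were Sod3, Msrb3, Gpx8, Mt2, Pon2 and Oxr1. Sod3 had 1922 ± 208 in shOgt against 1497 ± 145 in shLuc (log2 0.36, limma adjusted p = 0.0029), but 292 ± 65.4 in OSMI-1 against 465 ± 58.0 in vehicle. Msrb3 had 58.2 ± 19.4 in OSMI-1 against 106 ± 7.03 in vehicle (log2 -0.92, limma adjusted p = 0.00097), against a rise after knockdown. Oxr1 was the only one of these 6 that was lower after knockdown (log2 -0.36, limma adjusted p = 0.0074) and higher after OSMI-1 (log2 0.28, limma adjusted p = 0.016).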
